A study of Mus musculus with 6 samples.

Results

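Slc2a2, Slc30a8, Abcc8, Kcnj11, G6pc2 and Mafa, genes known for glucose sensing in the insulin-producing beta cell, were examined in cells sorted from embryonic mouse dorsal pancreatic buds. The 6 genes were chosen by name from 24062 genes listed in the deposited count tables, and each was present there. Their levels were read in 4 epithelial libraries, with 2 mesenchymal libraries as the background. The control groups had the genotype mTmG at E12.5 (epithelium and mesenchyme) and E14.5 (epithelium), where E is the embryonic day. The matching mutant groups carried, among their alleles, mTmG+/-, the driver Nkx2.5-Cre+/- and Pbx2+/-, which is not their full genotype. Every group carried the mTmG reporter, which turns from red Tomato to green GFP fluorescence where Cre recombinase acts. Cre was expressed from Nkx2.5, a gene of the pancreatic mesenchyme, and +/- stands for 1 copy of an allele. Each group is 1 library made from pooled sorted fractions, and the labels do not say how many embryos entered a pool or how GFP-positive cells arose in controls.

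A beta cell takes up glucose through the transporter GLUT2 (Slc2a2), phosphorylates and burns it, and the ATP so made closes the K-ATP channel. That channel is built from the pore subunit Kir6.2 (Kcnj11) and the sulfonylurea receptor SUR1 (Abcc8), and its closure depolarises the cell and releases insulin. The islet glucose-6-phosphatase subunit G6pc2 removes the phosphate again, the zinc transporter ZnT8 (Slc30a8) loads zinc into insulin granules, and Mafa is a leucine zipper transcription factor that binds the insulin promoter and comes on late in beta-cell formation. In the embryonic pancreas Slc2a2 is also known from progenitor cells that have not yet chosen an endocrine fate.

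The 6 genes lie at 5 places in the mm10 assembly. Slc2a2 lies on chromosome 3 from 28697903 to 28731359 (+ strand), G6pc2 on chromosome 2 from 69211073 to 69227841 (+), Slc30a8 on chromosome 15 from 52295553 to 52335798 (+) and Mafa on chromosome 15 from 75745490 to 75748228 (-). Kcnj11 (chromosome 7 from 46093953 to 46100764) and Abcc8 (chromosome 7 from 46104523 to 46180033) are neighbours on the - strand with 3758 bases between them. Other gene models overlap Slc2a2 (1 antisense model) and Abcc8 (2 models, 1 of them antisense), none of which is counted separately in the tables, so a read from them could have been given to the larger gene or to none.

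Promoter sequences are shown for Slc2a2 and G6pc2. They come from RefSeq (GRCm38.p6), which held a window for only these 2 of the 6 genes. Each window holds 250 bases before and 50 after a transcript start, 5′ to 3′ on the gene's strand, and capitals mark TAAT (the core that homeodomain factors such as Pdx1 bind) and TGCTGA (the half-site of Maf factors), read on either strand. G6pc2 has a pair of annotated starts, and the downstream one is shown.
Slc2a2 chr3:28697653-28697952 (+): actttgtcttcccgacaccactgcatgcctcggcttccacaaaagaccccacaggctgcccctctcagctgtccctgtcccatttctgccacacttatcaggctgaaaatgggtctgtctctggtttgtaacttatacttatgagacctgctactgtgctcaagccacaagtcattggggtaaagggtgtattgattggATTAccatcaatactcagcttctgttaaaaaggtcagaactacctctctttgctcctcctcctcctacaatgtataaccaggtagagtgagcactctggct
G6pc2 chr2:69219699-69219998 (+): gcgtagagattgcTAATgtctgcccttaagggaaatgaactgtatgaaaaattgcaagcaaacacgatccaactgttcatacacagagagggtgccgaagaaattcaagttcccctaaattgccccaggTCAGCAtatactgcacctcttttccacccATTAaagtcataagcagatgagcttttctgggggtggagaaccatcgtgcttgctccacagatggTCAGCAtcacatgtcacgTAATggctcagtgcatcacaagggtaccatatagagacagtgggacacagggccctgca
The G6pc2 window held 2 matches to TGCTGA, with first bases at positions -121 and -27 from the start, 3 to TAAT (-237, -92 and -9) and 4 to the E-box CANNTG (-181, -78, -34 and -20), with 0 overlaps between kinds of motif. The Slc2a2 window held 1 TAAT (-51), 1 CANNTG (-185) and no TGCTGA. The window at the upstream G6pc2 start (chromosome 2, 69210823 to 69211122) held 1 TAAT, 1 CANNTG and no TGCTGA, and TATAAA was in none of the 3 windows. Of 32851 RefSeq windows of the same length, 19.5% held TGCTGA, 58.0% TAAT, 72.3% CANNTG and 13.6% TATAAA. A match describes letters and does not show a bound site.

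Library totals on genes ran from 14032569 to 20276045 counts, and levels are given in CPM, the usual counts per unit of library size, scaled by TMM factors. With 1 library per group there is no replicate error, no test across samples and no p-value. The 95% intervals printed beside levels and ratios measure counting error alone, and reads that carry no molecular identifier are not independent counts of molecules. A gene is called higher or lower in a pair of libraries where it reached 5 CPM in at least 1 of them, differed at least 2-fold and had an interval that left out 1. Between library pairs the real spread is wider than counting error: over genes with a mean of 2 to 10 CPM the log2 ratio had an SD of 0.995 between the E12.5 epithelial libraries (0.26 from counting) and 1.33 between the E14.5 epithelial libraries (0.31 from counting). Over genes of 50 to 200 CPM these SDs were 0.305 and 0.528. Pbx2 stood at 89.9 CPM in control and 56.0 CPM in mutant mesenchyme. In epithelium, control first and then the library labelled mutant, Pbx2 stood at 54.5 and 49.7 CPM at E12.5 and at 34.0 and 47.3 CPM at E14.5. These epithelial levels do not show the loss that the label names, so "the library labelled mutant" is used for both, and directions drawn from them rest on the label.

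At E12.5 Slc2a2, Abcc8 and Kcnj11 were higher in epithelium than in mesenchyme. Slc2a2 stood at 60.9 CPM in control epithelium and 66.0 CPM in the epithelium labelled mutant, against 0.134 CPM (2 counts) and 0 CPM in the mesenchymal libraries. Abcc8 stood at 109.5 and 57.0 CPM in epithelium and at 3.49 and 2.12 CPM in mesenchyme. Kcnj11 stood at 12.3 and 11.1 CPM in epithelium and had no read in either mesenchymal library.

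Epithelium was thus above mesenchyme for each of these 3 genes in both genotypes, with no overlap of the counting intervals. None of the 6 genes reached 5 CPM in mesenchyme, so those that entered this comparison did so through epithelium alone, and how many were called higher says nothing about the 6 as a group. Over 12066 genes in controls, 13.6% were called higher in epithelium and 7% lower (20.6% either way). In bulk samples fewer cells of a type and less RNA per cell cannot be told apart. Slc2a2 was 454-fold higher (125 to 3750), Abcc8 31.4-fold (23.9 to 42.2) and Kcnj11 61.1-fold against a floor of 3 counts in the mesenchymal library, with a lower 95% limit of 49.3-fold. In the libraries labelled mutant, where 12.9% of 11956 genes were called higher and 5.42% lower (18.3% either way), G6pc2 was called as well, at 5.39 CPM in epithelium and 1.03 CPM (16 counts) in mesenchyme, 5.24-fold (3.04 to 9.59).

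Slc30a8 and Mafa were near the limit of detection at E12.5. Slc30a8 had no read in control epithelium, which allows up to 0.141 CPM, 5 counts (0.329 CPM) in the epithelium labelled mutant, and no read in mesenchyme. Mafa had 8 counts (0.377 CPM) in control epithelium, 1 count (0.0657 CPM) in the epithelium labelled mutant, 6 counts (0.402 CPM) in control mesenchyme and 0 in mutant mesenchyme. The Mafa levels of the control fractions overlapped, so epithelium could not be told from mesenchyme for this gene at this depth.

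**Figure D1:**
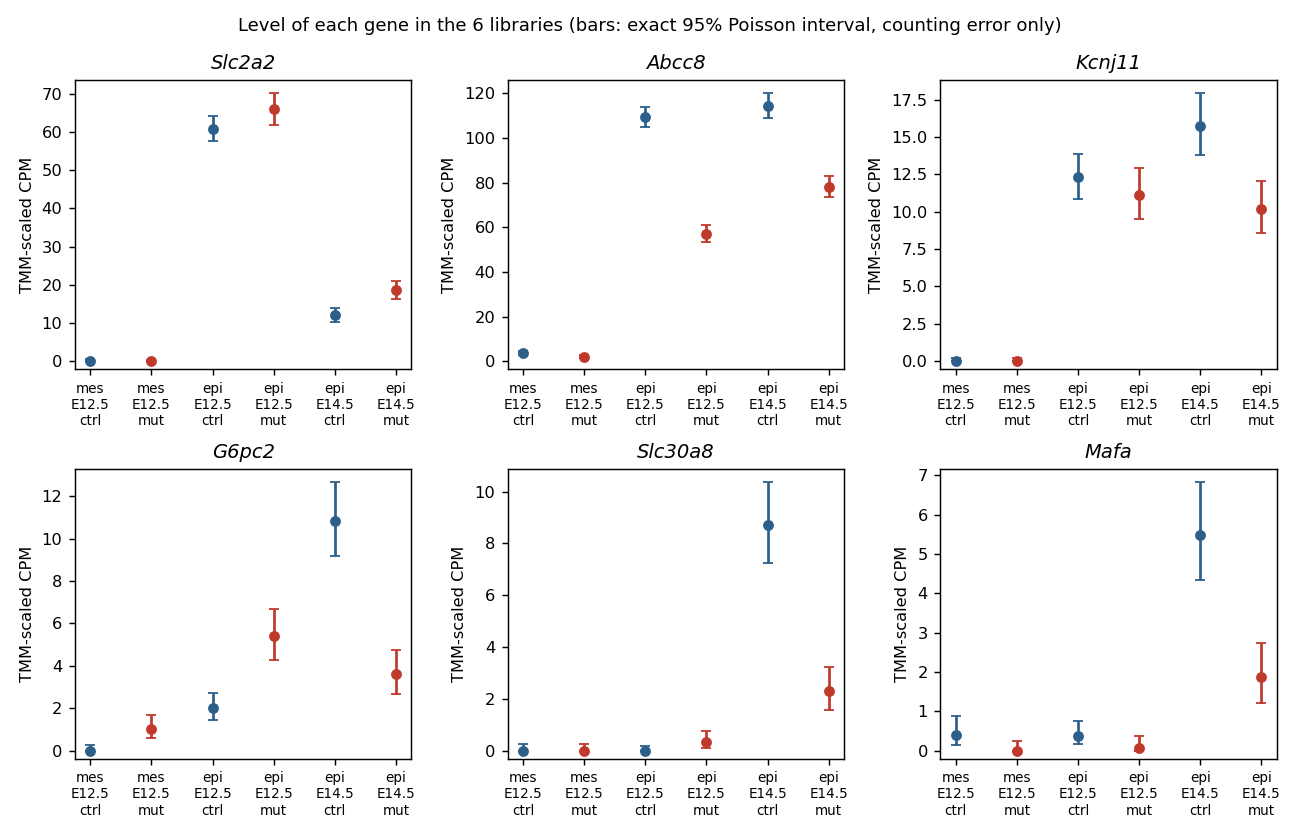
TMM-scaled CPM (vertical axes) of each of the 6 genes in each of the 6 libraries (horizontal axes; mes is mesenchyme, epi epithelium, ctrl control in blue, mut the library labelled mutant in red), with exact 95% Poisson bars. Slc2a2 is high at E12.5, Slc30a8 and Mafa are near 0 until E14.5, and the E14.5 control is the highest library for G6pc2, Slc30a8 and Mafa.

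From E12.5 to E14.5 in control epithelium the 6 genes split into 3 patterns. G6pc2, Slc30a8 and Mafa were higher at E14.5, Slc2a2 was lower, and the K-ATP channel genes Abcc8 and Kcnj11 passed the rule in neither direction. All 6 genes were measured, and 4 were called (3 higher, 1 lower), while 17.7% of 12136 genes were called (6.53% higher and 11.2% lower).

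Slc2a2 went from 60.9 CPM at E12.5 to 12.1 CPM at E14.5, 5.05-fold lower (4.31 to 5.94). In the libraries labelled mutant it went from 66.0 to 18.5 CPM, 3.56-fold lower (3.1 to 4.1). Both E12.5 epithelial libraries were thus above both E14.5 libraries, with intervals that did not overlap. Slc2a2 is a liver gene as well, and of 12 hepatocyte markers 5 were measured in the control stage comparison. Of these, 1 was higher (Ttr, also made by endocrine cells) and 3 lower (Fgg, Serpina1a and Trf), with a median log2 ratio of -1.33, where 11.2% of all measured genes were lower. In the libraries labelled mutant 0 of 5 were higher and 3 lower (Afp, Fgg and Serpina1a), with a median of -1.23, where 5.89% of all measured genes were lower. The summed level of the hepatocyte markers was 333 and 359 CPM in the E12.5 epithelial libraries and 438 and 318 CPM at E14.5, albumin (Alb) lay between 0 and 2.68 CPM in the 4 libraries, and their part in the Slc2a2 result was not tested.

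Slc30a8 went from no read to 8.70 CPM (127 counts) in control epithelium, 61.6-fold higher against a floor of 3 counts, with a lower 95% limit of 49.3-fold. Mafa went from 0.377 to 5.48 CPM, a log2 ratio of 3.86 (2.81 to 5.12), with the E14.5 value just above the 5 CPM limit. G6pc2 went from 2.03 to 10.8 CPM, 5.34-fold higher (3.79 to 7.67). These 3 genes had their highest level of the 6 libraries in the E14.5 control, and they entered the comparison through that library alone, being under 5 CPM at E12.5. The log2 ratios of 3.86 (Mafa) and 2.42 (G6pc2) stand beside an SD of 1.39 in this pair over genes of 2 to 10 CPM.

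In the epithelium labelled mutant the same stages gave 1 call among 4 measured genes, that of Slc2a2, where 12.2% of 12167 genes were called (6.27% higher and 5.89% lower). Slc30a8 went from 0.329 to 2.30 CPM, a ratio of 7.0 (2.71 to 23.0), and Mafa from 0.0657 to 1.87 CPM, a ratio of 28.4 (4.67 to 1165), but neither reached 5 CPM. G6pc2 stood at 5.39 and 3.59 CPM, a log2 ratio of -0.59 (-1.12 to -0.06) and so opposite in sign to the control. Whether the stage ratios differ between genotypes was not tested, because no group has a replicate.

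The K-ATP genes passed the rule in neither direction in either genotype. Abcc8 stood at 109.5 and 114.5 CPM in the controls (log2 ratio 0.06, interval -0.03 to 0.16) and at 57.0 and 78.0 CPM in the libraries labelled mutant (0.45, 0.32 to 0.58). Kcnj11 stood at 12.3 and 15.8 CPM in the controls (0.36, 0.10 to 0.62) and at 11.1 and 10.2 CPM in the libraries labelled mutant (-0.12, -0.46 to 0.21). The sign of the Abcc8 ratio in controls turned under plain CPM, at -0.09 on the log2 scale, a scaling that moves all genes of that comparison by -0.15.

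The E12.5 control table carries another date in its name than the other 5 tables. A batch therefore cannot be told apart from the stage, from the genotype at E12.5 or from the fraction in controls in that library. With the E12.5 library labelled mutant in its place, an alternative chosen after the data were seen, the E14.5 control was above it by 4.73 (Slc30a8), 6.38 (Mafa) and 1.006 (G6pc2) on the log2 scale and below it for Slc2a2. Abcc8 (1.008) then passed the rule too, so 5 of 6 genes were called, 4 of them higher.

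At E14.5 the 3 genes called higher with stage in the control were lower in the library labelled mutant. The E14.5 control library is part of both comparisons, so the results are not independent of each other. Slc30a8 read 8.70 CPM in the control against 2.30 CPM in the library labelled mutant and was 3.79-fold lower (2.55 to 5.77). G6pc2 stood at 10.8 and 3.59 CPM, 3.01-fold lower (2.18 to 4.23), and Mafa at 5.48 and 1.87 CPM, 2.93-fold lower (1.86 to 4.76). These 3 of 6 measured genes were called lower and 0 higher, where 16% of 12145 genes were called (6.4% lower and 9.64% higher). All 3 were under 5 CPM in the library labelled mutant and entered the comparison through the control alone, so their count is no support for a shared direction. Their log2 ratios of -1.92, -1.59 and -1.55 compare with the SD of 1.33 over genes of 2 to 10 CPM.

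The other 3 genes passed the rule in neither direction at E14.5. Abcc8 stood at 114.5 and 78.0 CPM (log2 ratio -0.55, interval -0.67 to -0.44) and Kcnj11 at 15.8 and 10.2 CPM (-0.63, -0.94 to -0.32), with overlapping intervals for the subunits of the channel. Slc2a2 read 12.1 CPM in the control against 18.5 CPM in the library labelled mutant (0.62, 0.34 to 0.90), the one gene of the 6 with the higher value in the library labelled mutant. The insulin genes, which the beta cell expresses with these genes, were called lower by ratios of the same order, Ins1 by 3.55-fold (3.23 to 3.9, from 145 to 40.9 CPM) and Ins2 by 3.52-fold (3.33 to 3.72, from 405 to 115 CPM).

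The E14.5 libraries also differed in their makeup. The general epithelial list summed to 7774 CPM in the control against 4179 CPM in the library labelled mutant, with 10 of 24 measured genes lower, 0 higher and a median log2 ratio of -0.93. General mesenchymal genes summed to 5793 and 12219 CPM, with 21 of 27 higher, and the part of this makeup in the results of the 6 genes was not tested. Once the median ratio of that epithelial list was subtracted, no gene of the 6 was called lower: the log2 ratio was -0.99 for Slc30a8, -0.67 for G6pc2, -0.63 for Mafa, 0.37 for Abcc8 and 0.30 for Kcnj11, and Slc2a2 was called higher at 1.55. The pan-endocrine list, of genes common to hormone cells, stood at a median of -0.20 (1 of 15 lower). Relative to them Slc30a8 (-1.72), G6pc2 (-1.39) and Mafa (-1.35) stayed past the threshold. That list is not limited to hormone cells, with sums of 217 and 235 CPM in control and mutant mesenchyme. Nor did its genes move alike. From the E14.5 control to the library labelled mutant Chga went from 279 to 200 CPM and Chgb from 476 to 665 CPM.

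**Figure D2:**
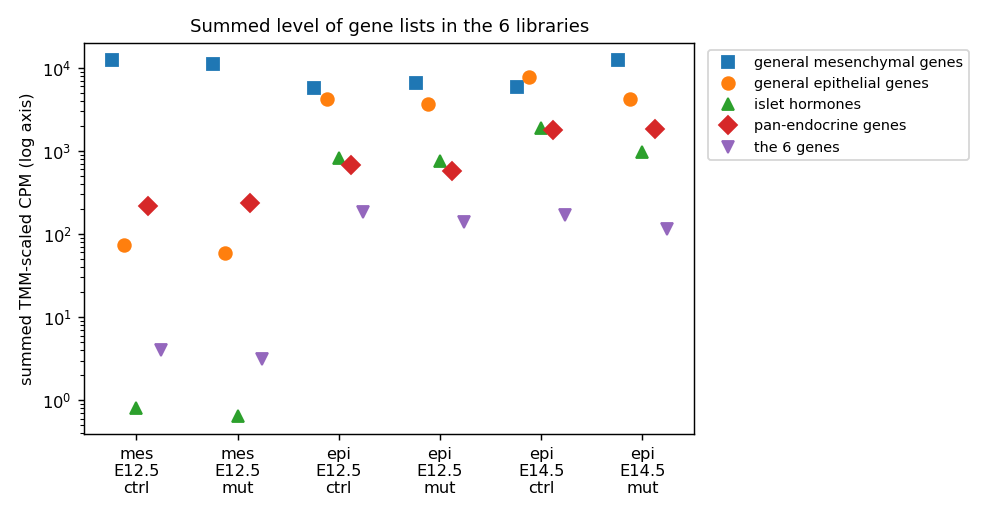
Summed TMM-scaled CPM (vertical log axis) of 4 gene lists and of the 6 genes in each library (horizontal axis, marks set side by side; mes is mesenchyme, epi epithelium, ctrl control, mut the library labelled mutant). The E14.5 library labelled mutant has a mesenchymal sum of 12219 CPM, near the 12220 CPM of control mesenchyme, and a pan-endocrine sum of 1811 CPM, near the 1771 CPM of the E14.5 control.

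At E12.5, 1 of 4 measured genes was called between the epithelial libraries. The control is the library whose table carries another date in its name, so a batch and the genotype cannot be told apart here. G6pc2 read 2.03 CPM in the control against 5.39 CPM in the library labelled mutant, or 2.66-fold higher (1.82 to 3.94), just above the 5 CPM limit that the control did not reach, where 5% of 11991 genes were called (1.79% higher and 3.21% lower). Its log2 ratio of 1.41 stands beside the SD of 0.995 over genes of 2 to 10 CPM. Abcc8 was at 109.5 and 57.0 CPM, 1.92-fold lower (1.78 to 2.08), short of 2-fold, a log2 ratio of -0.94 beside the SD of 0.305 over genes of 50 to 200 CPM. Kcnj11 (12.3 and 11.1 CPM) and Slc2a2 (60.9 and 66.0 CPM) had intervals that spanned 1, from -0.43 to 0.14 and from -0.00 to 0.24 on the log2 scale. General epithelial genes summed to 4228 and 3639 CPM at this stage and general mesenchymal genes to 5644 and 6483 CPM, a smaller gap than at E14.5.

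**Figure D3:**
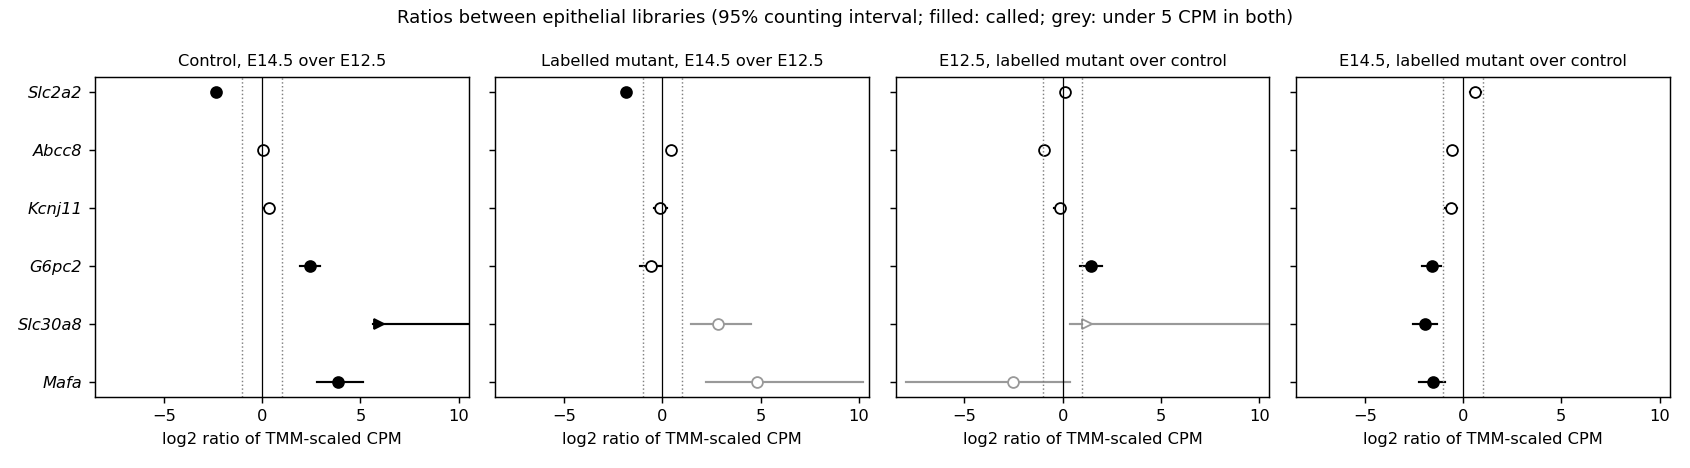
Log2 ratio of TMM-scaled CPM (horizontal axes) of the 6 genes (rows) in the 4 comparisons between epithelial libraries, with 95% counting intervals, dotted lines at 2-fold, filled marks for genes called, grey for genes under 5 CPM in both libraries and triangles for a ratio against the floor of 3 counts. Slc2a2 lies at -2.34 and -1.83 in the stage comparisons, and G6pc2 changes sign between the panels of each pair.

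Per length, the order of the genes changed with stage. Levels were divided by the summed exon length of each gene (1.97 kb for Slc30a8 and G6pc2, 2.74 kb for Mafa, 3.68 kb for Kcnj11, 5.76 kb for Slc2a2 and 8.09 kb for Abcc8). At E12.5 in control epithelium Abcc8 led with 13.5 CPM per kb, followed by Slc2a2 at 10.6, Kcnj11 at 3.34 and G6pc2 at 1.03 CPM per kb. At E14.5 Abcc8 led again with 14.2 CPM per kb. G6pc2 (5.48 CPM per kb), Slc30a8 (4.41) and Kcnj11 (4.28) followed with overlapping intervals, and Slc2a2 (2.09) and Mafa (2.0) came last and also overlapped. In the E14.5 library labelled mutant the order was Abcc8 (9.64 CPM per kb), Slc2a2 (3.22), Kcnj11 (2.77), G6pc2 (1.82), Slc30a8 (1.17) and Mafa (0.682), and in the E12.5 library labelled mutant Slc2a2 (11.5) led before Abcc8 (7.04).

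The channel's subunit genes kept a similar proportion in 3 of the 4 epithelial libraries. Abcc8 per kb was 4.05 times Kcnj11 per kb in the E12.5 control (3.56 to 4.62), 3.3 times in the E14.5 control (2.88 to 3.81) and 3.48 times in the E14.5 library labelled mutant (2.92 to 4.17). In the E12.5 library labelled mutant it was 2.33 times (1.98 to 2.77), an interval below the other 3. The paralogous channel of blood vessels and smooth muscle, with the pore Kcnj8 (Kir6.1) and the receptor Abcc9 (SUR2), was spread differently. Kcnj8 stood at 42.4, 53.0, 23.1 and 57.3 CPM per kb in the epithelial libraries (E12.5 control, E12.5 labelled mutant, E14.5 control, E14.5 labelled mutant) and at 60.4 and 23.9 CPM per kb in control and mutant mesenchyme. Abcc9 stood at 7.29, 5.65, 2.31 and 3.89 CPM per kb in epithelium and at 13.4 and 3.29 CPM per kb in mesenchyme. Of the pores, Kcnj8 was thus the one with reads in mesenchyme.

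Beside the E14.5 ratios of these channel genes, which nerve and muscle cells also use, markers of those cells moved. Of 14 neuronal and neural crest markers, 13 were measured, 10 higher in the library labelled mutant and 0 lower, with sums of 224 and 543 CPM and none at 0. Of 9 skeletal and cardiac muscle markers, 5 were measured and 5 were higher, with sums of 83.8 and 299 CPM. Of 10 smooth muscle and pericyte markers, 9 were measured and 6 were higher, with sums of 156 and 764 CPM. Over 12145 genes 9.64% were called higher and 6.4% lower. Markers such as Actc1 (1.30 and 12.4 CPM) entered through the library labelled mutant alone, so for them only a call of higher was possible. Des is in both muscle lists, and these counts are no support for a shared direction. Kcnj11 and Abcc8 had ratios of the other sign (-0.63 and -0.55), and the part of such cells in their levels was not tested.

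**Figure D4:**
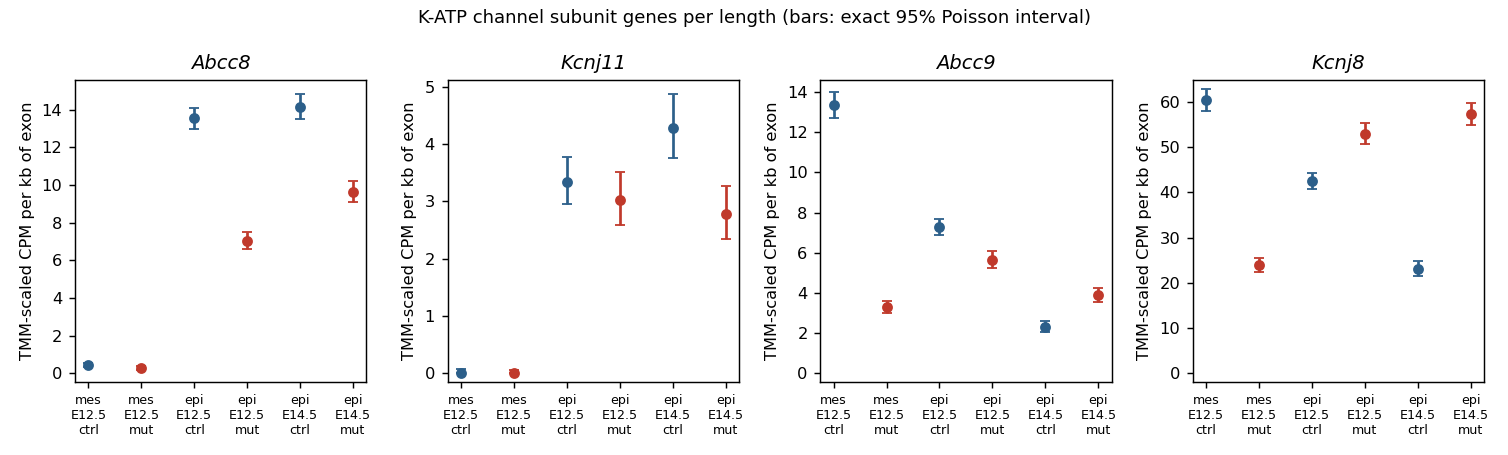
TMM-scaled CPM per kb of exon (vertical axes) of the beta-cell channel genes Abcc8 and Kcnj11 and of the vascular pair Abcc9 and Kcnj8 in the 6 libraries (horizontal axes; mes is mesenchyme, epi epithelium, ctrl control in blue, mut the library labelled mutant in red), with exact 95% Poisson bars. Kcnj11 is at 0 in mesenchyme, where Kcnj8 stands at 60.4 and 23.9 CPM per kb.

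Of the related factors Mafa and Maf, Mafa had the lower level in all but the E14.5 control, where their intervals overlapped. Per length, Mafa stood at 0.138 and 0.024 CPM per kb in the E12.5 epithelial libraries (control and labelled mutant) and at 2.0 and 0.682 CPM per kb at E14.5. Maf, a large Maf factor also made by macrophages, stood at 1.47, 2.09, 1.84 and 4.43 CPM per kb in the same order, and at 1.57 and 2.18 CPM per kb in control and mutant mesenchyme. At E14.5 Mafa was 2.93-fold lower in the library labelled mutant and Maf was 2.41-fold higher (2.05 to 2.84). Of 12 leukocyte markers, 11 were measured at E14.5, with 4 higher in the library labelled mutant (the macrophage genes Cd68, Fcgr1, Aif1 and Tyrobp) and 2 lower (the granulocyte genes S100a8 and S100a9). Over all measured genes 9.64% were higher and 6.4% lower. Fcgr1 went from 3.29 CPM (control) to 11.9 CPM (labelled mutant), entering through the latter alone, and Cd68 from 6.71 to 15.1 CPM. At E12.5 both had the lower value in the library labelled mutant. Fcgr1 stood there at 10.3 CPM (control) and 2.43 CPM (labelled mutant), and Cd68 at 13.2 and 8.87 CPM. All leukocyte markers together summed to 405, 249, 353 and 345 CPM in the epithelial libraries and to 64.0 and 36.1 CPM in mesenchyme, and their part in the Maf levels was not tested.

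**Figure D5:**
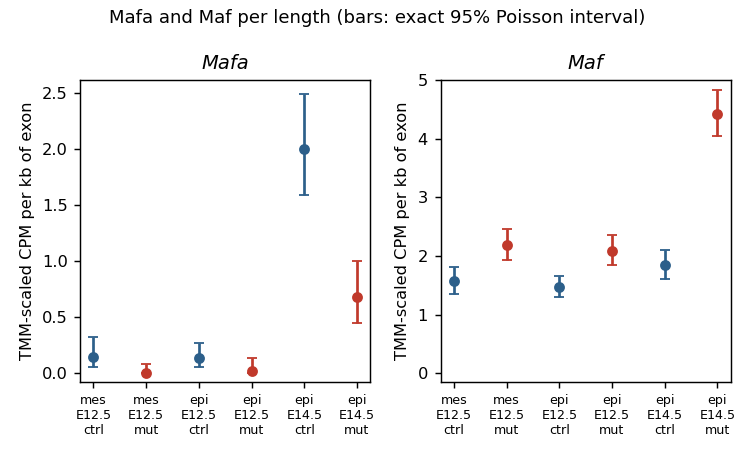
TMM-scaled CPM per kb of exon (vertical axes, each with its own scale) of Mafa and Maf in the 6 libraries (horizontal axes; mes is mesenchyme, epi epithelium, ctrl control in blue, mut the library labelled mutant in red), with exact 95% Poisson bars. Mafa reaches 2.0 CPM per kb in the E14.5 control, and Maf 4.43 CPM per kb in the E14.5 library labelled mutant.

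Of 22 other genes of glucose use and insulin release, 16 were measured in the control stage comparison, with 2 higher (Sytl4 and Gjd2, of granule docking and beta-cell coupling), 2 lower (Slc2a3 among them) and a median log2 ratio of 0.45, beside -0.03 over all 12136 measured genes, of which 6.53% were higher and 11.2% lower. At E14.5 between the libraries, 2 of 16 were higher (Slc2a3 among them) and 0 lower, with a median of -0.14 beside -0.03 over all genes, of which 9.64% were higher and 6.4% lower. The transporter Slc2a1 (GLUT1), found in most cells, stood at 109, 158, 109 and 90.8 CPM in epithelium, in the order used for Maf, and at 110 and 113 CPM in mesenchyme. In control epithelium Slc2a1 was thus level between the stages (log2 ratio -0.01, -0.10 to 0.08) while Slc2a2 was 5.05-fold lower. The zinc transporter Slc30a5, of the secretory pathway in many cells, stood at 83.4, 99.1, 144 and 104 CPM in epithelium and at 92.9 and 88.9 CPM in mesenchyme.

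Many listed hormone and pan-endocrine genes were higher at E14.5 in both genotypes. In controls 6 of 7 islet hormones and 13 of 15 pan-endocrine genes were higher at E14.5, with medians of 4.41 and 1.46, and 4 of 15 beta-cell transcription factors were higher (Neurod1, Pax6 and Neurog3 among them) and 0 lower, where 6.53% of all measured genes were higher. In the libraries labelled mutant 5 of 6 measured hormones and 12 of 15 pan-endocrine genes were higher, with medians of 4.39 and 1.52, and 6 of 15 beta-cell transcription factors were higher and 1 lower, where 6.27% of all measured genes were higher and 5.89% lower. At E12.5 Ins1 stood at 1.70 CPM (control) and 1.18 CPM (labelled mutant), and Ins2 at 0.848 and 0.526 CPM. Hormones such as these entered through E14.5 alone, so for them only a call of higher was possible. The hormone counts and medians are thus no support for a shared direction. Relative to the pan-endocrine median the K-ATP genes were called lower at E14.5 in both genotypes, at -1.39 (Abcc8) and -1.10 (Kcnj11) in controls and at -1.07 and -1.64 in the libraries labelled mutant. On that scale the control G6pc2 ratio (0.96) was no longer called. At E12.5, 3 of 15 beta-cell transcription factors (Neurod1, Pax4 and Rfx6) were lower in the library labelled mutant and 0 higher, where 3.21% of all measured genes were lower. At E14.5, 4 of 15 beta-cell transcription factors (Pdx1 and Hnf4a among them) and 3 of 7 hormones (Ins1, Ins2 and Iapp) were lower in the library labelled mutant and 0 higher, where 6.4% of all measured genes were lower.

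Over the 6 libraries, the genes whose profile lay closest to each of the 6 were found among 12301 genes by the root mean square distance of centred log2(CPM + 0.5). Closest to Kcnj11 were Fmo4 (0.06 log2 units), Apoc1 (0.09) and Enpp1 (0.12), and closest to Abcc8 were Sytl5 (0.17), Gpr56 (0.18) and Tmc4 (0.19). Closest to Slc2a2 were Kynu (0.44), Arg1 (0.48) and Nepn (0.56), which were also highest in the E12.5 epithelial libraries. Closest to G6pc2 were Tmem125 (0.30), Cdkl1 (0.33) and Aifm3 (0.37). Closest to Slc30a8 were Clca2 (0.26), Itga7 (0.32) and Cd3e (0.32), and closest to Mafa were Fkbp11 (0.25), Chac2 (0.32) and Fam81a (0.34). With 6 points that share fraction and stage, many genes can lie this close, and no gene of the 6 was among the 5 closest to another.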

How the data were processed

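RNA from sorted dorsal bud cells was sequenced in 6 libraries, 1 per group. The authors deposited raw counts per gene symbol, deduplicated per the table names, a step that can compress genes with many reads. Per the submitters' processing notes, the build was mm10 and the tools included Cufflinks 2.2.1 and Cuffdiff 2.2.1. For the aligner, counter, annotation and strand setting, the sources used here give nothing. The 5 summary lines of each table were left out: reads on no gene were 4.69% to 8.84% of all, ambiguous reads 1.53% to 1.72% and reads placed at several sites 13.7% to 20.1%.

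Counts were scaled to CPM with TMM factors (0.941 to 1.047) from edgeR 4.0.16 in R 4.3.3. Ratios have exact 95% Clopper-Pearson intervals from the conditional binomial and levels have exact Poisson intervals, in Python 3.11.15 with scipy 1.17.1. Where a library had 0 counts of a gene, 3 counts stood in for them as the floor of the ratio. Each comparison was computed over all genes. Simulated counts with known changes were used to check the calculation. Exon lengths and positions came from GENCODE M21, of the same assembly as mm10.

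The 6 genes and the lists were chosen with earlier results of these data known. The text names all 6 genes and, of each list, up to 4 genes of highest epithelial level. Lists share some genes, such as Neurod1 and Pax6. Some items are not reported here. The genes called in counts of 5 or fewer, and the 3 closest of the 5 profile neighbours were chosen after their values were seen. Alternatives were DESeq2 1.42.0 size factors, plain CPM, thinning to the smallest library total, other filters and thresholds, and ratios relative to general epithelial or pan-endocrine genes.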

Additional observations from a re-analysis of the deposited data

Results flagged for a closer look

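G6pc2 moved in opposite directions under the same contrast, with counting intervals that left out no difference on each side. Its genotype log2 ratio was 1.41 at E12.5 (2.03 CPM in control and 5.39 CPM in mutant-labelled epithelium) and -1.59 at E14.5 (10.8 and 3.59 CPM). Its stage log2 ratio was 2.42 for the control pair and -0.59 for the pair labelled mutant, the latter short of 2-fold. Both pairs use the same 4 libraries and are the same observation seen from either side. The E12.5 control is the library whose table carries another date in its name. With 1 library per group the difference was not tested.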

How the results depend on the processing

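The count of genes called among the 6 stayed within 1.5 times of the reported count in 40 of 51 recomputations and moved in 11. In the epithelium labelled mutant from E12.5 to E14.5, where 1 gene was called, the count was 3 with a filter at 1 CPM and 3 with no filter (Slc30a8 and Mafa then being called higher), 2 at 1.5-fold, 0 at 4-fold and 4 relative to the pan-endocrine genes, all lower. Between the E12.5 epithelial libraries, where 1 was called, it was 2 with no filter, 2 at 1.5-fold and 0 at 4-fold. Between the E14.5 epithelial libraries, where 3 were called, it was 5 at 1.5-fold, 0 at 4-fold and 1, higher, relative to the general epithelial genes. The filters and thresholds change what can be called, and the relative scales subtract a median log2 ratio of -0.93 (general epithelial, E14.5 genotype) or 1.52 (pan-endocrine, stage, labelled mutant). In control epithelium between the stages the call of 4 genes held at 4-fold, under DESeq2 size factors, plain CPM and thinning, and relative to the general epithelial genes, while relative to the pan-endocrine genes 5 were called, 2 higher and 3 lower, without G6pc2. Of 159 log2 ratios of single genes recomputed, 126 lay within the reported counting interval, 33 outside it, and none of a called gene changed sign, while Abcc8, Kcnj11 and Mafa ratios that were not called did.

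No paired analysis was possible because each group holds 1 library. Leaving out a library would leave its group empty. Mafa, Slc30a8 and G6pc2 rest on 158 counts or fewer in every library.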

Other observations

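Reads of these genes in mesenchyme were not in one proportion to the epithelium. Abcc8 in control mesenchyme stood at 3.18% of its epithelial CPM (2.37% to 4.19%) and in mutant mesenchyme at 3.73% (2.55% to 5.27%). The epithelial gene Epcam stood at 0.871% (0.673% to 1.11%) and 0.821% (0.624% to 1.06%), and glucagon (Gcg) at 0.0502% and 0.0173%. G6pc2 stood at 19.1% (10.4% to 32.9%) in mutant mesenchyme, from 16 counts, and had no read in control mesenchyme. Kcnj11, the neighbour of Abcc8 on chromosome 7, had no read in either, which its epithelial level allows up to 2.03% and 2.16%.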
